A study of Mus musculus with 12 samples.

Results

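The BCL2 family decides whether the outer membrane of the mitochondrion is opened, which commits a cell to apoptosis, and 10 of its genes were followed here in mouse rhabdomyosarcoma. They were taken by name out of 38898 genes with deposited values: the pro-survival members Bcl2, Bcl2l1 and Mcl1, the pore-forming effectors Bax and Bak1, and the BH3-only members Bcl2l11, Bbc3, Pmaip1, Bid and Bad. All 10 had enough reads to be tested, as did 17602 genes in all. RNA-seq was performed on 12 tumors, taken here as 1 per mouse and dissected on day 16. They grew from Rd76-9 cells placed in the flank of WT mice of the strain C57/Bl6J (8 to 12 weeks old at inoculation). Rd76-9 is a single line, derived from a carcinogen-induced rhabdomyosarcoma, a cancer that carries features of skeletal muscle. Mice received vehicle (saline and empty nanoparticles, tumors m1, m2 and m3), VCR at 0.25 mg/kg (m4, m5 and m6), RCM1-NPFA at 8 µg per injection (m7, m8 and m9) or both drugs (m10, m11 and m12), with VCR given every 7 days and nanoparticles every 48 hours. One label of the vehicle tumors also names RCM1, and these tumors were grouped by their titles. VCR is vincristine, which binds tubulin and stops cells in mitosis, and RCM1-NPFA is a small molecule inhibitor of the transcription factor FOXM1 packed in nanoparticles that carry folic acid.

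In healthy cells the pro-survival proteins hold the effectors in check. BH3-only proteins are made or activated under stress, bind the pro-survival proteins and free or activate BAX and BAK, which then form pores and let cytochrome c out of the mitochondrion. During a long arrest in mitosis MCL1 protein is degraded while little is newly transcribed, so that the balance between both sides of the family is known to decide whether an arrested cell dies or slips out of mitosis. Much of this control acts on protein, which RNA-seq does not measure.

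Libraries held between 29342195 and 32108055 estimated counts. Vehicle tumors had next to no RNA of the muscle regulators Myod1 and Myog, which define rhabdomyosarcoma, at 0.0309, 0 and 0 CPM and 0.0617, 0 and 0.0336 CPM (CPM are counts scaled to library size), while Myf5, another such regulator, was at 52.6, 69.9 and 67.2 CPM. Summed over 14 genes of mature muscle fibres, with Acta1 the most abundant, the level was 163, 49.6 and 42.3 CPM in vehicle tumors, 3848, 12368 and 1689 CPM after VCR, 156, 219.6 and 18790.5 CPM after RCM1-NPFA and 2284, 4586 and 460.2 CPM after both drugs. Tumors m5 and m9 thus stood apart from the rest. Where 1 of them was the highest or lowest of the 12 tumors for a member, the comparison with vehicle is also given without them. The 10 markers of rhabdomyosarcoma and embryonic muscle summed to 189 to 268 CPM with vehicle and 401 to 701 CPM with VCR. Of the 9 tested, 3 were called higher after VCR, against 5.72% of all genes called. Of this list, Myod1 was at 2.38, 2.38 and 1.20 CPM and Myog at 2.16, 1.65 and 1.43 CPM after VCR. Myf5 did not rise with them, at 58.8, 54.1 and 67.2 CPM after VCR, within the range of the vehicle tumors.

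The promoters of Bax, Bak1 and Bcl2 are shown because these were the 3 members whose VCR-treated tumors lay entirely beyond the vehicle tumors. Each sequence is the 250 bases before the RefSeq start of transcription on the strand of the gene, in build GRCm38.p6, from a RefSeq table that held 9 of the 10 members. Capitals mark matches, on either strand, to CCAAT (the CCAAT box), GGGCGG (the GC box), TATAAA (the TATA box), CACGTG (an E-box) or the p53 half-site consensus.
Bax, chr7:45466899-45467148, minus strand: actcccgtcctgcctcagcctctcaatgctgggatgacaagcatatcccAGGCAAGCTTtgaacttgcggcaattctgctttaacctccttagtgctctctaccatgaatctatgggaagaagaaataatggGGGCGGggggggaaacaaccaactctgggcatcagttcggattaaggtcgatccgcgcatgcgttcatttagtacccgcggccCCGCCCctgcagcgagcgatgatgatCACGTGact
Bak1, chr17:27028628-27028877, minus strand: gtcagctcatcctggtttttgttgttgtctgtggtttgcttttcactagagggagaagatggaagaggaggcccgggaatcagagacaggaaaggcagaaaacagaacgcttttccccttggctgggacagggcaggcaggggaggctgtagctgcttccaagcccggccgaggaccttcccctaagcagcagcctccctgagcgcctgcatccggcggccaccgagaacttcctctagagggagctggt
Bcl2, chr1:106714291-106714540, minus strand: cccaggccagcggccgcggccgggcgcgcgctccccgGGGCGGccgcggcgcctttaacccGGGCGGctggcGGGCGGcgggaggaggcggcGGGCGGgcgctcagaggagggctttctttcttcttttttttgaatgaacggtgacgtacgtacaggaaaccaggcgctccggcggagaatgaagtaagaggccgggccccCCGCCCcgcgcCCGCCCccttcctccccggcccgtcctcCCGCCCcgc
In the Bax promoter there were 2 GC boxes, 1 E-box and 1 p53 half-site match, in the Bcl2 promoter 7 GC boxes, and in the Bak1 promoter 0 matches to the 5 motifs. Among 32851 promoter windows of the same length, 32.7% held a GC box, 6.02% held CACGTG, 7.13% held the half-site, 33.8% held CCAAT and 12.4% held TATAAA. The GC content was 54.0% in the Bax window, 58.4% in the Bak1 window and 74.8% in the Bcl2 window, against a median of 52.4% over all windows. These matches describe the letters of the windows, and binding was not measured.

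The family was expressed in every tumor, and its level is given here as TPM, a share of all transcripts that corrects for length and so allows genes to be compared. The effectors led: mean TPM over the 12 tumors was 170.4 for Bax and 134 for Bak1, followed by 114 for Mcl1, 76.7 for Bad, 34.7 for Bid, 30.005 for Bcl2l1, 22.3 for Bcl2l11, 21.1 for Bbc3, 5.30 for Bcl2 and 1.10 for Pmaip1. Bax thus stood above 95.4% of the tested genes and Pmaip1 above 23.6% of them. Most neighbours in this order kept it in every tumor. Bak1 was above Mcl1 and Bid above Bcl2l1 in 11 of 12 tumors. Bcl2l11 was above Bbc3 in 8 of 12 tumors, so that the levels of these BH3-only genes did not differ beyond their spread. Mcl1 made up most of the pro-survival RNA and Bcl2, the founding member, the least of it.

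The spread between tumors differed by member. The highest tumor exceeded the lowest by 1.20-fold for Mcl1, 1.23-fold for Bid, 1.25-fold for Bak1, 1.29-fold for Bad, 1.35-fold for Bcl2l1, 1.38-fold for Bax, 1.46-fold for Bcl2l11, 1.496-fold for Bcl2, 1.76-fold for Pmaip1 and 2.25-fold for Bbc3, in CPM. The ranges were widest for Bbc3 and Pmaip1. In bulk tumors a smaller share of one cell type and less RNA per cell cannot be told apart.

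**Figure D1:**
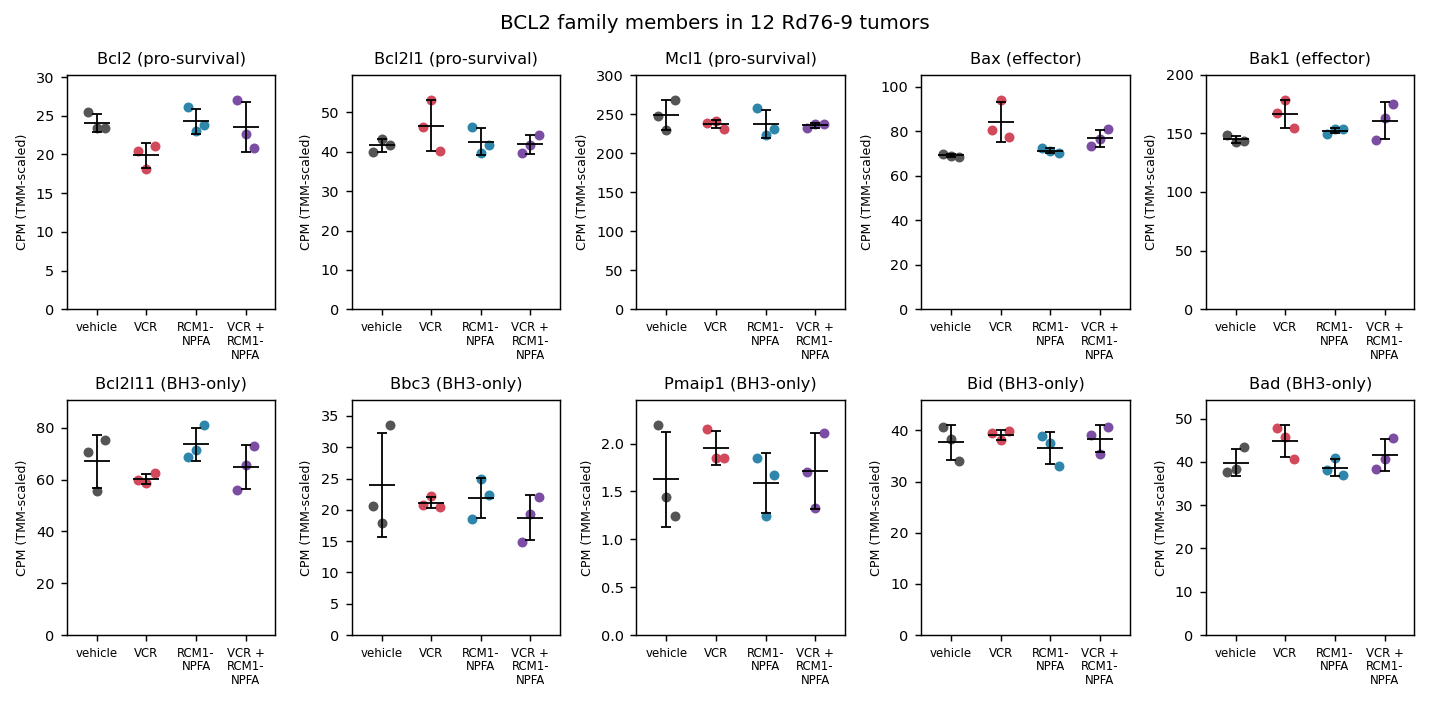
Level of each of the 10 BCL2 family genes in 12 tumors, in TMM-scaled CPM on axes that start at 0. Points are tumors, horizontal bars are means and whiskers are SD over 3 tumors of a group. Bax, Bak1 and Bcl2 are the panels in which the VCR tumors do not overlap the vehicle tumors, and Bax in m5 (94.1 CPM) is the highest Bax value.

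The first question was which members VCR moved. Compared to vehicle, VCR raised 1 of 10 members, Bax, at an adjusted p under 0.1 in edgeR's quasi-likelihood test with Benjamini-Hochberg adjustment over all tested genes, whereas 5.72% of all tested genes passed (510 higher and 496 lower). It lowered 0 of 10. An unadjusted p under 0.05 was found for 3 of 10 members, Bax, Bak1 and Bcl2, against 22.1% of all genes, and the groups did not overlap for the same 3 members, against 24.4% of all genes. These shares lie near the background. The median log2 fold change of the 10 members was 0.11, and that of all genes 0.0016. The DESeq2 Wald test, used by the authors and run here as an alternative, called 2 of 10 members, Bax (adjusted p = 0.0204) and Bcl2 (adjusted p = 0.0964), against 15.0% of the genes to which it gave an adjusted p.

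Among the pro-survival members, Bcl2 restrains BAX and BH3-only proteins at the mitochondrion and the endoplasmic reticulum. Its level was 25.5, 23.5 and 23.4 CPM in vehicle tumors and 20.5, 18.1 and 21.1 CPM after VCR. All 3 VCR tumors were below all 3 vehicle tumors, with m5 the lowest of the 12. The mean was 24.1 ± 1.17 CPM (SD, n = 3) with vehicle and 19.9 ± 1.59 CPM (SD, n = 3) with VCR. The log2 fold change of Bcl2 was -0.28 (standard error 0.11), with an adjusted p of 0.172 in edgeR, so that it did not pass. Bcl2 lies on chromosome 1 from 106538176 to 106714290 on the minus strand, and 558 of its exonic bases overlap an annotated gene on the other strand whose level was not measured here.

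Bcl2l1 encodes BCL-XL, and its level was 39.8, 43.2 and 41.7 CPM in vehicle tumors and 46.4, 53.2 and 40.2 CPM after VCR. The groups overlapped, and m5 was the highest of the 12 tumors. Bcl2l1 differed by 0.16 on the log2 scale (standard error 0.10, edgeR adjusted p = 0.365). Its interval, from -0.058 to 0.39, reached across 0. The difference was 0.060 without m5 and 0.054 without m5 and m9.

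Mcl1, whose short-lived protein must be made anew to persist, was at 248, 230.4 and 269 CPM in vehicle tumors and 239, 242 and 232 CPM after VCR. In CPM the VCR tumors lay within the range of the vehicle tumors. In TPM, which is not TMM-scaled, they lay below all of them, at 110, 106 and 112 TPM against 124, 115 and 120 TPM with vehicle. The log2 fold change of Mcl1 was -0.068 (standard error 0.076, edgeR adjusted p = 0.639), with a 95% interval from -0.23 to 0.097. Single vehicle tumors moved this value, to -0.14 without m2 and to -0.0096 without m3.

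Of the effectors, Bax is largely cytosolic until it is activated and moves to mitochondria. Its level was 69.9, 69.0 and 68.3 CPM in vehicle tumors and 80.7, 94.1 and 77.4 CPM after VCR. In CPM vehicle tumors hardly differed from one another, every VCR tumor was above them, and m5 was the highest of all. In TPM, which is not TMM-scaled, vehicle tumors spread more, at 169, 163 and 147 TPM, against 175, 194 and 180 TPM after VCR. The mean was 69.0 ± 0.817 CPM (SD, n = 3) with vehicle and 84.1 ± 8.84 CPM (SD, n = 3) with VCR. This is a 1.22-fold difference with a 95% interval from 1.09 to 1.36, a log2 fold change of 0.28 (standard error 0.074, edgeR adjusted p = 0.0861). The call was marginal and was lost without single tumors. Without m5, the VCR tumor with the most muscle fibre RNA, the log2 fold change was 0.20 and the edgeR adjusted p 0.325. The adjusted p was 0.137, 0.185, 0.102 and 0.224 without m1, m2, m3 and m4, and 0.0588 without m6. In these last fits the log2 fold change stayed between 0.27 and 0.32. Without m2, m4 or m5, 0 of all tested genes were called. Without both m5 and m9 the log2 fold change was 0.19 (adjusted p = 0.336). A two-sided exact permutation test of Bax gave p = 0.1, the smallest p that 3 tumors against 3 allow. Bax lies on chromosome 7 from 45461695 to 45466903 on the minus strand, and 192 of its exonic bases overlap an annotated gene on the same strand whose level was not measured here.

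Bak1 encodes BAK, which sits in the outer mitochondrial membrane at all times, and it was at 148, 143 and 143 CPM in vehicle tumors and 168, 178 and 154 CPM after VCR. Every VCR tumor was above every vehicle tumor, again with m5 on top. Its log2 fold change was 0.20 (standard error 0.079, edgeR adjusted p = 0.168), which did not pass. Bak1 lies on chromosome 17 from 27019812 to 27028627 on the minus strand, where 614 exonic bases overlap Ggnbp1 on the plus strand, a gene at no more than 2.78 CPM in any tumor.

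**Figure D2:**
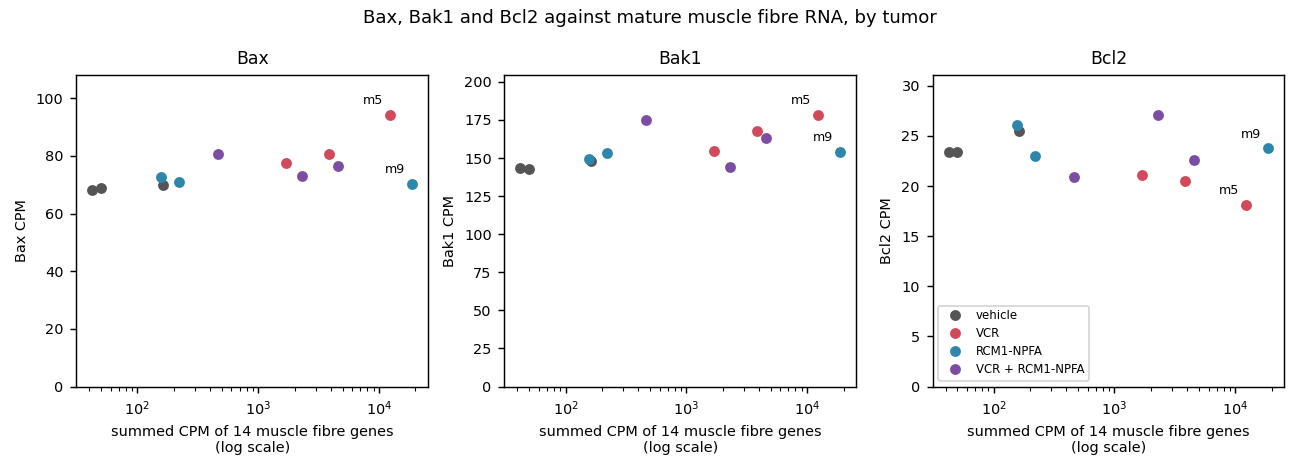
Bax, Bak1 and Bcl2 (CPM, from 0) against the summed CPM of 14 mature muscle fibre genes (log scale), with 1 point per tumor colored by group. Tumor m5 has the highest Bax and Bak1 and the lowest Bcl2, while m9, with more fibre RNA (18790.5 CPM), has Bax at 70.3 CPM, near the vehicle tumors.

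Of 14 mature muscle fibre genes, 7 were called higher after VCR, against 5.72% of all genes called. The other treatments called 0 of 14 (0.0% of all genes), but the median log2 fold change was 7.01 after RCM1-NPFA and 5.41 after both drugs, against 6.97 after VCR. In edgeR an unadjusted p under 0.05 was found for 14 of 14 after RCM1-NPFA (9.78% of all genes) and 13 of 14 after both drugs (7.31%). The tumor with the most muscle fibre RNA was m9 (RCM1-NPFA). There Bax was at 70.3 CPM and Bcl2 at 23.8 CPM, both close to the vehicle tumors, and Bak1 was at 154 CPM, above all of them. Without m5 and m9 the log2 fold change after VCR was -0.22 for Bcl2 and 0.15 for Bak1. The VCR tumors that then remained, m4 and m6, still held more muscle fibre RNA than any vehicle tumor. The part of this RNA in the differences from vehicle was not tested in any comparison. Against the same 5.72%, endothelial markers were called for 1 of 8 genes and fibroblast markers for 3 of 7, all higher after VCR. Leukocyte markers were called for 0 of 13 tested. In edgeR an unadjusted p under 0.05 was found for 6 of 8 endothelial, 3 of 7 fibroblast and 1 of 13 leukocyte genes (22.1% of all genes). None of these shares was tested against the share of all genes. Summed endothelial levels did not overlap but nearly touched, at 147 to 202.47 CPM with vehicle and 202.56 to 268 CPM with VCR. Summed levels overlapped for fibroblasts (2358 to 3611 CPM and 2832 to 3280 CPM) and leukocytes (1558 to 2171 CPM and 1805 to 2114 CPM). No defining marker of these lists was at 0 in all vehicle tumors.

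The BH3-only members are the sensors of the family. Bcl2l11 encodes BIM, which binds every pro-survival protein, and it was at 70.5, 55.4 and 75.2 CPM in vehicle tumors and 59.8, 58.8 and 62.4 CPM after VCR. VCR tumors lay inside the vehicle range, and the mean log2 difference was -0.15 (standard error 0.12, edgeR adjusted p = 0.491). It ranged from -0.29 without m2 to -0.061 without m3.

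Bbc3 encodes PUMA, a target of p53, and varied most of the members. It was at 20.7, 17.9 and 33.5 CPM in vehicle tumors and 20.8, 22.2 and 20.5 CPM after VCR. Vehicle tumor m3 alone was far above the rest. Its difference of -0.18 on the log2 scale (standard error 0.22, edgeR adjusted p = 0.656) became 0.13 without m3. Ddit3, which encodes CHOP and was picked here after its values were seen, was also highest in m3, with 25.1, 37.2 and 59.2 CPM in the vehicle tumors. Whether the stress response that Ddit3 belongs to bears on Bbc3 in m3 was not tested.

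Pmaip1 encodes NOXA, which binds MCL1 and promotes its loss. Its estimated counts were between 37 and 71 per tumor, the fewest of the family. It was at 2.19, 1.44 and 1.24 CPM in vehicle tumors and 2.16, 1.85 and 1.85 CPM after VCR, groups that overlapped. With so few counts the 95% interval of its log2 fold change of 0.26 ran from -0.31 to 0.83 (edgeR adjusted p = 0.591), the widest of the family. The value was 0.54 without m1 and 0.10 without m3.

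Bid, which links death receptors to the mitochondrion once caspase-8 cuts it, was at 40.6, 38.3 and 34.0 CPM in vehicle tumors and 39.6, 38.1 and 39.9 CPM after VCR. Bad, which growth factor signals hold inactive by phosphorylation, was at 37.7, 38.3 and 43.5 CPM and 47.8, 45.9 and 40.7 CPM. For both genes the groups overlapped. The log2 fold change was 0.057 for Bid (standard error 0.091, edgeR adjusted p = 0.752) and 0.17 for Bad (standard error 0.093, edgeR adjusted p = 0.303). Both genes share exonic bases with a gene on the other strand, Bid with Bcl2l13 (628 bases) and Bad with Gpr137 (524 bases). These neighbours were well expressed, at 60.3 to 70.2 CPM and 27.4 to 38.2 CPM, so that their reads may not be told apart everywhere.

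**Figure D3:**
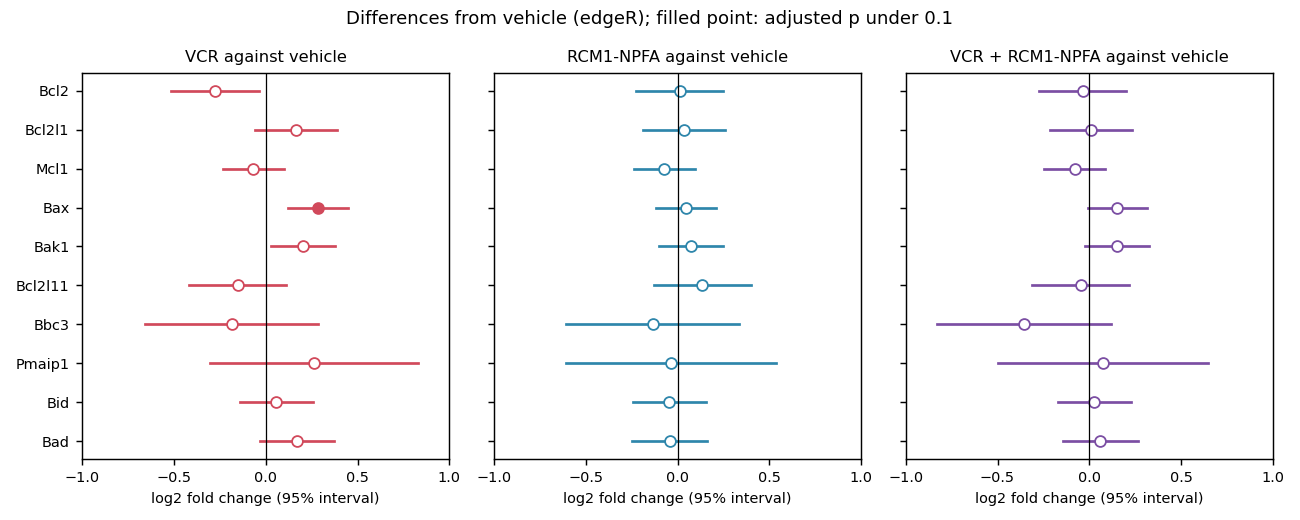
Log2 fold change of each member against vehicle for VCR, RCM1-NPFA and both drugs, with 95% intervals as bars. The filled point marks the only adjusted p under 0.1, Bax after VCR (0.28), and every other interval except those of Bak1 and Bcl2 after VCR includes 0.

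The second question was whether RCM1-NPFA moved the family. The comparisons with vehicle share the same 3 vehicle tumors. After RCM1-NPFA, 0 of 10 members were called higher or lower by edgeR (0.0% of all genes passed) and 0 of 10 had an unadjusted p under 0.05 (9.78% of all genes). DESeq2 called 0 of 10 (1.58% of the genes to which it gave an adjusted p), and the groups did not overlap for 2 of 10 members, Bax and Bak1 (11.4% of all genes). The largest absolute log2 fold change was that of Bcl2l11, at 0.14 (standard error 0.12, edgeR adjusted p = 0.762). This value was 0.065 without m9, 0.063 without m5 and m9, 0.010 without m2 and 0.23 without m3. The median over the members was -0.012.

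Bax was at 72.6, 71.0 and 70.3 CPM after RCM1-NPFA and Bak1 at 149, 154 and 154 CPM. Both lay just above the vehicle tumors in every tumor, with small differences, on the log2 scale 0.046 for Bax (standard error 0.074, edgeR adjusted p = 0.894) and 0.074 for Bak1 (standard error 0.079, edgeR adjusted p = 0.808). Bcl2 was at 26.1, 23.0 and 23.8 CPM, Bcl2l1 at 46.3, 39.5 and 41.8 CPM and Mcl1 at 257, 223 and 231 CPM. All 3 pro-survival members overlapped the vehicle tumors, and the upper bound of the 95% interval of the log2 fold change was 0.25 for Bcl2 and 0.26 for Bcl2l1. Bcl2l11 was at 68.7, 71.3 and 80.9 CPM, with m9 the highest of the 12 tumors. Bbc3 was at 18.5, 24.9 and 22.3 CPM, Pmaip1 at 1.85, 1.24 and 1.67 CPM, Bid at 38.9, 37.6 and 33.0 CPM and Bad at 38.1, 40.9 and 37.0 CPM, and each of them overlapped the vehicle tumors. Tumor m9 was the lowest of the 12 for Bid and Bad, whose log2 differences of -0.044 and -0.042 became 0.023 and -0.012 without m5 and m9.

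The third question was the combination. Against vehicle, VCR + RCM1-NPFA gave 0 of 10 members called by edgeR (0.0% of all genes), 0 of 10 with an unadjusted p under 0.05 (7.31%) and 0 of 10 called by DESeq2 (0.393% of the genes with an adjusted p from it). The groups did not overlap for 1 of 10 members, Bax (12.6% of all genes). The median over the members was 0.019 on the log2 scale. Bax was at 73.2, 76.3 and 80.8 CPM and Bak1 at 144, 163 and 175 CPM. Every combination tumor was above every vehicle tumor for Bax, and m10 was among the vehicle tumors for Bak1. Log2 fold changes were 0.15 for Bax (standard error 0.074, edgeR adjusted p = 0.692) and 0.15 for Bak1 (standard error 0.079, edgeR adjusted p = 0.699).

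Bcl2 was at 27.1, 22.6 and 20.9 CPM after both drugs, Bcl2l1 at 39.7, 41.6 and 44.3 CPM and Mcl1 at 232, 237 and 238 CPM. Bcl2 spread more widely than in any other group, with m10 the highest of the 12 tumors. The log2 fold change was -0.035 for Bcl2, 0.0099 for Bcl2l1 and -0.080 for Mcl1, with edgeR adjusted p-values of 0.961, 0.989 and 0.817. Among the BH3-only members, Bbc3 had the largest difference of any member, -0.36 (standard error 0.22, edgeR adjusted p = 0.742), at 14.9, 19.4 and 22.1 CPM. It was -0.040 without m3, the vehicle tumor that stood apart. Bcl2l11 was at 56.1, 65.5 and 73.1 CPM, Pmaip1 at 1.71, 1.33 and 2.11 CPM, Bid at 39.0, 35.5 and 40.6 CPM and Bad at 38.4, 40.7 and 45.5 CPM. These 4 genes overlapped the vehicle tumors.

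Set directly against VCR, the combination gave 0 of 10 members called by edgeR (0.0% of all genes). DESeq2 gave an adjusted p to 4 of 10 members there and called 0 of them (0.256% of the 4293 genes with one). Bcl2 was the 1 of 10 members with an unadjusted p under 0.05 (5.26% of all genes). Its mean was higher with both drugs than with VCR, 23.5 ± 3.19 against 19.9 ± 1.59 CPM (SD, n = 3 each), a log2 fold change of 0.24 (standard error 0.11, edgeR adjusted p = 0.855), and m12 lay within the VCR range. Bax had a log2 fold change of -0.13 (standard error 0.074, edgeR adjusted p = 0.855). Against RCM1-NPFA the combination gave 0 of 10 members by edgeR (0.0%), 0 of 10 with an unadjusted p under 0.05 (2.07%) and 0 of 10 by DESeq2 (0.0% of the genes with an adjusted p from it). There Bax differed by 0.11 on the log2 scale (standard error 0.074, edgeR adjusted p = 0.9999).

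The interaction of the drugs is the part of the combination's log2 change that exceeds the sum of both single-drug changes. It was called for 0 of 10 members by edgeR (0.0% of all genes), 0 of 10 had an unadjusted p under 0.05 (13.8%) and DESeq2 called 0 of 10 (2.73% of the genes with an adjusted p from it). The values lay between -0.19 for Bcl2l1 and 0.23 for Bcl2. For Bax the interaction was -0.18 (standard error 0.10, edgeR adjusted p = 0.473), with a 95% interval from -0.41 to 0.053. The interval of Bax reached across 0, as did those of the other members.

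Levels summed by role showed the balance of the family, as a description without a test. The 3 pro-survival members summed to 160.3, 151 and 153 TPM in vehicle tumors and 146, 146 and 145 TPM after VCR. Both effectors together came to 303, 291 and 263 TPM and 313, 335 and 315 TPM. In each case the VCR tumors did not overlap the vehicle tumors, lower for the pro-survival sum and higher for the effectors. The effector sum was 294, 284 and 294 TPM after RCM1-NPFA and 306, 322 and 328 TPM after both drugs. Every combination tumor was thus also above every vehicle tumor, and RCM1-NPFA tumors overlapped them. The pro-survival sums of both these groups overlapped vehicle. TPM are not TMM-scaled. In summed TMM-scaled CPM the effectors stayed apart, at 212 to 218 CPM with vehicle and 232 to 272 CPM with VCR, while the pro-survival groups overlapped, at 297 to 334 CPM and 293 to 313 CPM. The effector sum was 222 to 225 CPM after RCM1-NPFA, above every vehicle tumor, and 217 to 256 CPM after both drugs, which overlapped vehicle. The 5 BH3-only members summed to 161, 149 and 162 TPM with vehicle and 160.1, 151 and 159 TPM with VCR, and these groups overlapped.

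The ratio of the 7 pro-death to the 3 pro-survival members was 2.89, 2.91 and 2.78 in vehicle tumors, 3.24, 3.32 and 3.26 after VCR, 2.77, 3.24 and 3.04 after RCM1-NPFA and 2.98, 3.17 and 3.39 after both drugs. Every VCR tumor and every combination tumor was above every vehicle tumor, and RCM1-NPFA tumors spread across the range. The mean was 2.86 ± 0.0703, 3.27 ± 0.0404, 3.02 ± 0.239 and 3.18 ± 0.206 in the same order (SD, n = 3 each). On the log2 scale the ratio was higher than with vehicle by 0.19 after VCR, 0.074 after RCM1-NPFA and 0.15 after both. Without Mcl1, the most abundant pro-survival gene, these values were 0.055, -0.0018 and 0.087, and each treated group overlapped the vehicle tumors. The difference between the groups was therefore smaller with Mcl1 left out.

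**Figure D4:**
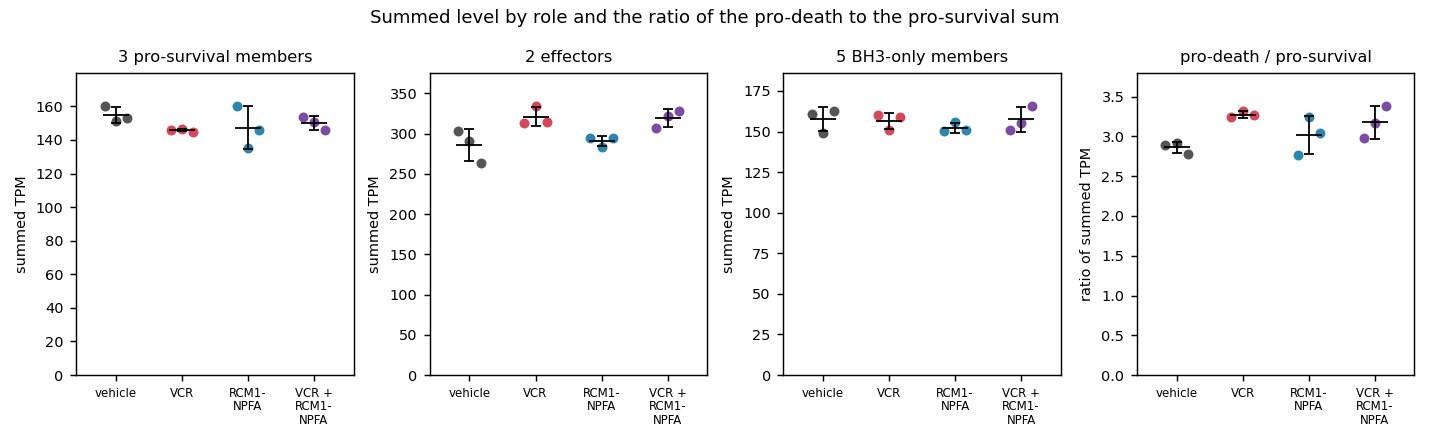
Summed TPM of the 3 pro-survival members, both effectors and the 5 BH3-only members, and the ratio of the pro-death to the pro-survival sum, in 12 tumors on axes that start at 0. Points are tumors, bars are means and whiskers SD over 3 tumors. The effector sum is 313 to 335 TPM after VCR and 306 to 328 TPM after both drugs against 263 to 303 TPM with vehicle, while the BH3-only sums overlap.

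Single pairs varied more than the sums. Bax over Bcl2 was 27.2, 28.9 and 29.3 with vehicle and 37.9, 49.4 and 36.4 with VCR, and m5 was the highest. Bax over Bcl2 was 27.7, 30.5 and 29.5 after RCM1-NPFA and 26.2, 33.5 and 38.8 after both drugs. The VCR tumors lay above all vehicle and RCM1-NPFA tumors, and the combination tumors spread from below the vehicle tumors to the VCR range. Bcl2l11 over Bcl2l1 was 0.829, 0.638 and 0.867 with vehicle and 0.621, 0.507 and 0.773 with VCR, which overlapped.

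Several members make more than 1 transcript, and kallisto divides shared reads between them, so that transcript levels are estimates. Bax RNA was 91.4% 1 coding transcript of 869 bases, Bak1 97.3% 1 of 2018 bases, Mcl1 99.5% 1 of 3498 bases and Bcl2 96.9% 1 of 7209 bases, as means over the 12 tumors. The main Bax transcript was at 158, 149 and 136 TPM in vehicle tumors and 159, 179 and 164 TPM after VCR. On this scale, too, every VCR tumor lay above every vehicle tumor, by a narrow margin for m4.

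Bcl2l11 had 9 transcripts in the files, of which those of 5040, 4872 and 4782 bases carried 61.5%, 22.2% and 6.18% of its TPM. The latter are shorter than the first by 168 and 258 bases, which are 56 and 86 codons. BIM is known to be made in forms called EL, L and S, and the files do not say which transcript encodes which. The longest was at 14.7, 11.97 and 13.1 TPM with vehicle and 13.0, 11.8 and 12.3 TPM with VCR. The middle one was at 6.92, 4.02 and 6.40 TPM and 4.15, 3.37 and 5.79 TPM. Both overlapped between the groups.

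Bcl2l1 had 11 transcripts, and 12.4% of its TPM fell to a noncoding transcript of 1662 bases. Its noncoding RNA was at 5.51, 1.49 and 4.38 TPM with vehicle and 4.51, 9.33 and 1.29 TPM with VCR, and its coding RNA at 24.3, 28.7 and 23.2 TPM and 26.9, 26.8 and 26.4 TPM. In this estimated split of shared reads the high Bcl2l1 of m5 fell to the noncoding RNA, and coding Bcl2l1 of the VCR tumors stayed within the vehicle range. The estimated share of the 1662-base transcript ran from 3.78% to 25.7% across the tumors. Bbc3 was spread over 12 transcripts, with 6 at a mean share of 5% or more, and Pmaip1 had 1.

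The other genes of the pathway were read from 7 lists of 72 genes, of which 68 passed the count filter. Their genes stand upstream of the family (transcription factors), beside it (other relatives, mitochondrial partners, regulators of MCL1 protein) and downstream of it (apoptosome and caspases, and the inhibitors that block them), with the death receptor pathway as the other route to caspases. After VCR, 4 of 68 were called, 2 higher and 2 lower, near the 5.72% of all genes. All 4 lost the call at a threshold of 0.05 and without m2, m4, m5, m11 or m12, and only Foxo3 kept it without both m5 and m9 (adjusted p = 0.0880). After RCM1-NPFA and after both drugs 0 of 68 were called.

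Among the other BCL2 relatives (15 genes, 13 tested, median log2 fold change 0.0084 after VCR), 1 was called higher and 0 lower. Bok, an effector-like relative that can open mitochondria without BAX and BAK, was at 38.3, 35.1 and 30.9 CPM with vehicle and 43.2, 58.4 and 44.1 CPM with VCR. Its groups did not overlap, and m5 was the highest, with a log2 fold change of 0.48 (standard error 0.12, edgeR adjusted p = 0.0809). Bnip3, a hypoxia-induced relative that marks mitochondria for removal, was the most abundant of the list by mean TPM. It was at 117, 129 and 218 CPM with vehicle and 73.5, 75.6 and 93.7 CPM with VCR, and just missed the threshold (log2 fold change -0.94, edgeR adjusted p = 0.103). Bcl2l10 and Hrk had too few reads to be tested, and the Bcl2a1 genes are near-identical copies whose reads cannot be split with certainty.

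Of the regulators of MCL1 protein and mitotic exit (7 genes, median -0.0068), 1 was called higher and 1 lower after VCR. Cdc20, the activator of the ubiquitin ligase that ends mitosis, was at 160.1, 163 and 159 CPM with vehicle and 189, 217 and 183 CPM with VCR. Huwe1, a ubiquitin ligase of MCL1, was at 374, 361 and 349 CPM and 306, 306 and 321 CPM. Neither pair of groups overlapped. Log2 fold changes were 0.29 for Cdc20 (standard error 0.077, edgeR adjusted p = 0.0871) and -0.22 for Huwe1 (standard error 0.063, edgeR adjusted p = 0.0987). Markers of cycling cells summed to 1840 to 2450.5 CPM with vehicle and 1897 to 2105 CPM with VCR, so that their summed level overlapped. Of these markers, 1 of 9 was called higher after VCR, against 5.72% of all genes called.

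Transcription factors of BH3-only genes (10 genes, 8 tested, median 0.028) had 0 called higher and 1 lower after VCR. Foxo3, which drives Bcl2l11 and Bbc3 when growth factor signals are low, was at 89.6, 90.9 and 104 CPM with vehicle and 73.0, 76.1 and 71.9 CPM with VCR. The groups did not overlap, with a log2 fold change of -0.36 (standard error 0.083, edgeR adjusted p = 0.0748). Atf4, the stress-response factor and the most abundant of the list, was at 319, 424 and 496 CPM and 393, 395 and 339 CPM, and its groups overlapped. After both drugs Foxo3 was at 81.6, 77.0 and 78.9 CPM, below every vehicle tumor, with a log2 fold change of -0.26 (edgeR adjusted p = 0.666). Trp63 and Trp73 had too few reads to be tested.

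In the remaining 4 lists 0 genes were called. The apoptosome and caspase list (13 genes) had a median of 0.068 after VCR, with 3 genes at an unadjusted p under 0.05 (22.1% of all genes). Its smallest p after VCR was that of Htra2, a mitochondrial protease that blocks inhibitors of apoptosis, at 76.5, 77.5 and 81.7 CPM with vehicle and 92.0, 97.0 and 86.3 CPM with VCR (log2 fold change 0.22, edgeR adjusted p = 0.163). Dffa, the inhibitor of the nuclease that cuts DNA in apoptosis, came next (log2 fold change 0.27, edgeR adjusted p = 0.172). Neither passed the threshold.

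Inhibitors of apoptosis (7 genes) had a median of -0.15 and 3 genes at an unadjusted p under 0.05 after VCR (22.1% of all genes). Birc5 encodes survivin, which also serves in cell division, and was at 97.3, 109 and 91.4 CPM with vehicle and 125, 138 and 114 CPM with VCR (log2 fold change 0.34, edgeR adjusted p = 0.114). Naip2, a sensor of bacterial proteins, had a log2 fold change of -0.37 (edgeR adjusted p = 0.146). Both missed the threshold.

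The death receptor pathway (10 genes) had a median of 0.032 and 2 genes at an unadjusted p under 0.05 after VCR (22.1% of all genes). Cflar encodes c-FLIP, which blocks caspase-8, and had a log2 fold change of -0.34 after VCR (edgeR adjusted p = 0.144) and -0.35 after RCM1-NPFA (edgeR adjusted p = 0.433). Fadd, the adaptor of death receptors, had 0.23 after RCM1-NPFA (edgeR adjusted p = 0.437). The receptor Tnfrsf1a, the most abundant gene of the list, had 0.25 after VCR (edgeR adjusted p = 0.177).

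Mitochondrial partners (10 genes) had a median of 0.13 and 4 genes at an unadjusted p under 0.05 after VCR (22.1% of all genes). Vdac2, the channel that holds BAK in the membrane, had a log2 fold change of 0.20 (edgeR adjusted p = 0.148). Dnm1l, which divides mitochondria, had -0.28 (edgeR adjusted p = 0.145). Vdac1, the most abundant of the list, had 0.15 (edgeR adjusted p = 0.386). None of these values passed the threshold.

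**Figure D5:**
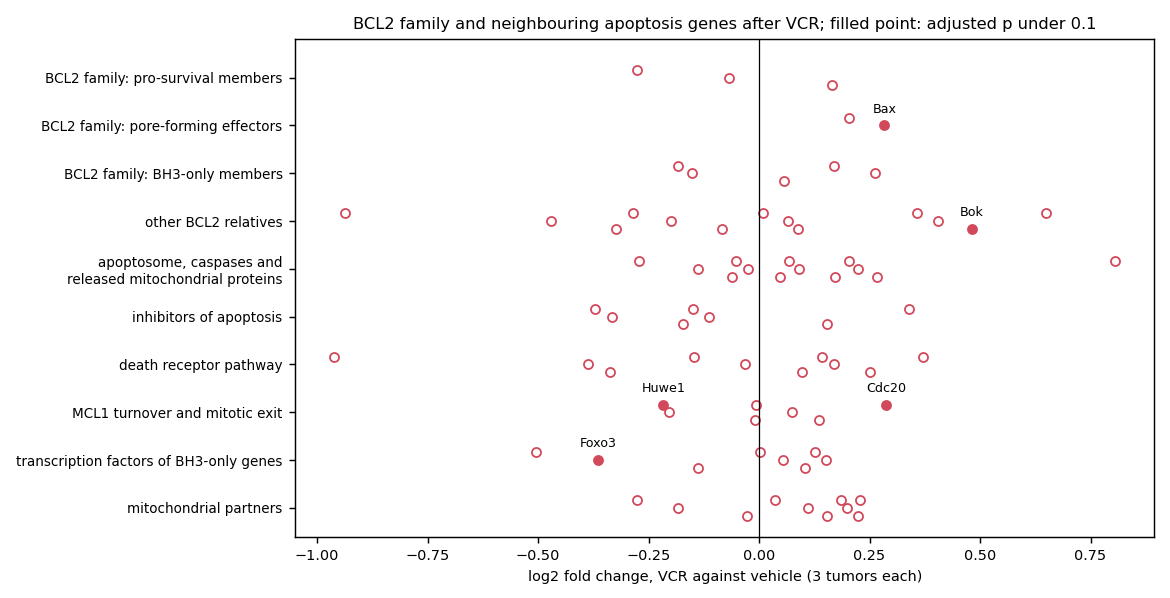
Log2 fold change after VCR, against vehicle, of the tested genes of the 3 member lists and 7 neighbouring lists, with 1 point per gene. Filled and named points have an adjusted p under 0.1: Bax (0.28), Bok (0.48), Cdc20 (0.29), Huwe1 (-0.22) and Foxo3 (-0.36).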

How the data were processed

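RNA-seq of 12 Rd76-9 tumors was analysed, 3 each from the vehicle, VCR, RCM1-NPFA and VCR + RCM1-NPFA groups, grouped by title. The authors prepared poly-A libraries, assigned reads to transcripts of GRCm38 with kallisto (version not given in the sources used here), and deposited an estimated count and a TPM value per transcript. The estimated counts are not normalized, and TPM is scaled to length and to a fixed total. A stranded kit is named but the libraries are called non-stranded, so overlapping genes on opposite strands may share reads.

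All 120299 transcripts were matched to RefSeq genes. Estimated counts were summed per gene and rounded, TPM was summed, filterByExpr with a minimum count of 10 kept 17602 genes, and groups were compared with edgeR 4.0.16 (TMM, quasi-likelihood F test, 1 fit of 4 group means) in R 4.3.3, with Benjamini-Hochberg adjustment over all tested genes and a threshold of 0.1. CPM are TMM-scaled. Single values were compared by two-sided exact permutation of log2 CPM with a pseudocount of 0.1. Intervals are 95% from the fit. Alternatives were DESeq2 size factors, no filter, length offsets, DESeq2 1.42.0, limma-voom (limma 3.58.1), fits of the groups compared, a threshold of 0.05 and leaving out tumors. Library size alone, leaving out tumors of other groups, leaving out m5 and m9, and DESeq2 on only the groups compared were added after seeing the data. The scripts were tested on simulated data. Tables used Python 3.11.15 (numpy 2.4.6, scipy 1.17.1, pandas 2.3.3) and figures matplotlib 3.10.9.

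The members and lists were chosen with earlier results of these data known. The named genes are all 10 members and, from each of 7 pathway lists, those called (otherwise the 2 with the smallest p) and the most abundant. Separate mice are the replicates. No sequencing batch is given. Gene positions and promoters are from RefSeq, and strands, exons and overlapping genes of the members from GENCODE, all on GRCm38.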

Additional observations from a re-analysis of the deposited data

How the results depend on the processing

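The number of members called after VCR, 1 of 10, was 0 at a threshold of 0.05, with no count filter, with limma-voom, with only the groups compared (edgeR or DESeq2), and without both m5 and m9. It was 2 with DESeq2 on all tumors, and 0 to 1 with each tumor left out in turn (0 without m1, m2, m3, m4, m5, m10, m11 or m12). The Bax log2 fold change lay between 0.19 and 0.32 in all of these, and its adjusted p between 0.0204 and 0.336. The cause of the lost call was not tested. In the other comparisons and the interaction 0 of 10 members were called in every alternative run. Without Mcl1 the log2 difference of the pro-death to pro-survival ratio from vehicle was 0.055 after VCR, -0.0018 after RCM1-NPFA and 0.087 after both drugs.

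Of all genes, 1006 were called after VCR, against 9 at 0.05, 599 with no filter, 2285 with DESeq2, 465 (edgeR) and 1544 (DESeq2) with only the groups compared, 253 without m5 and m9, and 0 to 2012 with each tumor left out (0 without m2, m4 or m5, 1 without m11), and Bok, Cdc20, Huwe1 and Foxo3 were not called without m2, m4, m5, m11 or m12. After RCM1-NPFA the number was 0, against 277 and 36 with DESeq2 and 8 without m3. After both drugs it was 0, against 61 and 238 with DESeq2, 44 without m9 and 138 without m5 and m9.

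The sign of 27 small differences, none of them called, reversed. Leaving out single tumors gave these ranges on the log2 scale. After VCR, Bbc3 ran from -0.37 (without m2) to 0.13 (without m3), and Bid from -0.010 (without m3) to 0.12 (without m1). After RCM1-NPFA, Bcl2 ran from -0.044 (without m7) to 0.052 (without m1), Bcl2l1 from -0.031 (without m7) to 0.084 (without m8), Bbc3 from -0.31 (without m2) to 0.18 (without m3), Pmaip1 from -0.20 (without m3) to 0.24 (without m1), Bid from -0.11 (without m3) to 0.024 (without m9) and Bad from -0.083 (without m8) to 0.026 (without m3). After both drugs, Bcl2 ran from -0.16 (without m10) to 0.044 (without m12), Bcl2l1 from -0.033 (without m12) to 0.035 (without m10), Bcl2l11 from -0.18 (without m2) to 0.043 (without m3), Pmaip1 from -0.10 (without m12) to 0.35 (without m1), Bid from -0.040 (without m3) to 0.085 (without m1) and Bad from -0.011 (without m12) to 0.13 (without m3). After RCM1-NPFA, Bcl2 was also at -0.0042 with length offsets and Bid at 0.023 without m5 and m9. In the order of mean levels, 10 of 10 members kept their place as CPM per kilobase of effective length. No paired analysis was possible because the tumors are numbered m1 to m12 and the groups share 0 numbers. RNA levels do not show protein or its activation, and depth limits Pmaip1 most.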
